A study of Mus musculus with 22 samples.

Results

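The comparison described here is that of cortex from dTg mice, which carry the N40K transgene together with the 5xFAD transgenes, with cortex from littermates that carry the 5xFAD transgenes alone. It holds 6 of the 22 libraries of the series, 3 dTg and 3 5xFAD, all from mice aged 6 months, and every one of the 15705 genes in the table of these mice. N40K mice and wild-type (WT) mice from the same crosses, 3 libraries each, shared the estimate of the spread and gave the effect of N40K without 5xFAD. The parents of all 4 groups carried N40K-Tg or FAD in the +/- state. N40K is an N-terminal fragment of U1-70K, and its promoter and the sex of the mice are not stated in the labels. The 5xFAD transgenes, which the neuronal Thy1 promoter drives, lead to amyloid deposits, and both groups compared carried them. The labels give replicates but not which animal each came from beyond the littermate design, so p-values measure the spread between these libraries.

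U1 snRNP, a particle of U1 small nuclear RNA and proteins, pairs with the 5′ splice site at the start of an intron and begins the assembly of the spliceosome. U1-70K, encoded by Snrnp70, is the protein that ties the U1 RNA to other splicing factors, including the serine- and arginine-rich (SR) proteins. U1 snRNP also keeps polyadenylation signals inside introns from being used. U1-70K collects in insoluble aggregates in the brain in Alzheimer disease.

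The measurement was the Sd score, taken here as a splicing deficiency score, a ratio computed for each gene in each library that is higher where more of the signal is unspliced. It is not an expression level. Bulk cortex averages over cell types, so a change of splicing within cells and a change in the mix of cells cannot be told apart. The authors rounded scores to steps of 0.001, and 6065 genes (38.6%) had a mean below 0.02, where 1 step is a sizeable part of the value. Read depth was not given in the sources used here, which limits the precision that can be stated. Of 19 defining markers of cortical cell types, 16 had a row, and Cx3cr1, Mbp and Cldn5 had none. Across genes, r on the log2 scale was 0.981 to 0.988 between dTg and 5xFAD libraries, 0.988 to 0.99 within dTg and 0.985 to 0.989 within 5xFAD.

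With N40K added to 5xFAD, scores of 44 genes rose and those of 5 fell. Among the rises with a higher score were Cdk8, the kinase of the Mediator complex, and Hnrnpu, a nuclear RNA-binding protein. Among the falls were Peg3, a paternally expressed imprinted gene, Snrnp48, a protein of the minor spliceosome, and Fnbp4, which encodes a WW-domain protein. These 49 calls were 0.312% of all genes, 0.280% for rises and 0.0318% for falls (limma, Benjamini-Hochberg adjusted p under 0.05). Rises ran from 1.22- to 2.15-fold on the log2(score + 0.002) scale, on which every change below is given. All 49 had libraries that did not overlap between dTg and 5xFAD.

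The calls depended on the centring of the libraries and on single libraries. When each library was centred on its own median, no gene passed in limma (smallest adjusted p 0.0572), although 2534 genes had an unadjusted p under 0.05, 1466 (9.33%) of them higher and 1068 (6.80%) lower. All 49 kept their direction. Without 5xFAD replicate 1, 13 of the 49 passed, and without 5xFAD replicate 3 also 13. All 13 that passed in each of the 6 omissions of a dTg or 5xFAD library were among 14 genes whose groups differed by 1 step of 0.001 with no spread in the dTg or the 5xFAD libraries, and none had a mean score of at least 0.02. Of the 49, 18 had a mean score of at least 0.02, 15 of them higher and 3 lower in dTg. When only genes of that level were tested, their changes were the same and none of the 18 passed in limma, with adjusted p from 0.0804 to 0.0957; 1512 genes had an unadjusted p under 0.05.

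Peg3 gave the largest fall of the 5 called. Its score was 0.082, 0.059 and 0.083 in the dTg libraries, against 0.135, 0.13 and 0.125 in the 5xFAD libraries. All dTg libraries lay well below every 5xFAD library, with dTg replicate 2 the lowest. The change was -0.80 (SE 0.13), a fold of 0.575, with an adjusted p of 0.0459 in limma and 0.0624 after centring. In N40K mice the score was 0.061, 0.073 and 0.069, against 0.123, 0.133 and 0.142 in WT mice, again without overlap (change -0.95, adjusted p 0.0227).

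Fnbp4 had scores of 0.026, 0.024 and 0.026 in dTg mice, against 0.033, 0.034 and 0.036 in 5xFAD mice. The fall was -0.41 (SE 0.05, adjusted p 0.0247 in limma), and N40K mice stood below WT mice by a similar step (-0.55, adjusted p 0.00271). Snrnp48, which sits in the U11/U12 particle that does the work of U1 and U2 on the rare minor-class introns, had 0.101, 0.101 and 0.114 in dTg mice, against 0.131, 0.148 and 0.136 in 5xFAD mice. Its fall was -0.39 (SE 0.06, adjusted p 0.0478), and the N40K libraries, at 0.113, 0.112 and 0.116, also all lay below the WT libraries, at 0.142, 0.144 and 0.153. After centring, Fnbp4 changed by -0.52 (adjusted p 0.0795) and Snrnp48 by -0.50 (adjusted p 0.0629).

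The other falls were of low scores. Ccdc46 had 0.009, 0.008 and 0.007 in dTg mice, against 0.012, 0.013 and 0.012 in 5xFAD mice (change -0.52, adjusted p 0.0478 in limma). Tuba1a, a neuronal alpha-tubulin, had 0.004 in every dTg library and 0.005 in every 5xFAD library, a difference of 1 step. It has close copies among the alpha-tubulins, and the N40K and WT libraries were also all at 0.004.

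Cdk8 rose most among the called genes with established names and a mean score of at least 0.02. Its scores were 0.105, 0.094 and 0.079 in dTg mice, against 0.048, 0.047 and 0.048 in 5xFAD mice. The dTg libraries were all well above the 5xFAD libraries and also above the N40K libraries, at 0.052, 0.067 and 0.057. The change was 0.92 (SE 0.12, 1.89-fold, adjusted p 0.0247 in limma) on the 5xFAD background and 0.33 (adjusted p 0.189) without 5xFAD, and the difference between these changes was 0.60 (unadjusted p 0.0064, adjusted p 1). Of the 33 measured subunits of Mediator, the complex that links transcription factors to RNA polymerase II, Cdk8 alone passed. Its partner Ccnc, cyclin C, had 0.04, 0.04 and 0.038 in dTg mice, against 0.035, 0.029 and 0.03 in 5xFAD mice (adjusted p 0.111).

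Hnrnpu rose by a small step in scores with little spread. The score was 0.134, 0.143 and 0.137 in dTg mice, against 0.116, 0.11 and 0.111 in 5xFAD mice, and 0.145, 0.141 and 0.137 in N40K mice, against 0.108, 0.11 and 0.114 in WT mice. Neither pair overlapped, and the changes were 0.29 (SE 0.04, 1.22-fold, adjusted p 0.0385 in limma) with 5xFAD and 0.34 (adjusted p 0.0177) without it. Centring lowered the change to 0.18 (adjusted p 0.219). Hnrnpu was the only member to pass among 21 measured hnRNP genes.

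Zc3h7a, a zinc-finger protein, and Fndc1 also rose. Zc3h7a had 0.068, 0.079 and 0.06 in dTg mice, against 0.043, 0.046 and 0.045 in 5xFAD mice (1.51-fold, adjusted p 0.0385 in limma). Fndc1 had 0.043, 0.035 and 0.046 in dTg mice, against 0.027, 0.027 and 0.024 in 5xFAD mice (1.54-fold, adjusted p 0.0478). In both genes the N40K libraries lay above the WT libraries without overlap.

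Among the calls of this score level, 6 more genes with established names were chosen after their values were seen. Evc, a ciliary protein of hedgehog signalling, had 0.102, 0.102 and 0.103 in dTg mice, against 0.065, 0.071 and 0.072 in 5xFAD mice (1.46-fold). Gas2l1, which links actin to microtubules, had 0.378, 0.402 and 0.347 in dTg mice, against 0.264, 0.288 and 0.26 in 5xFAD mice (1.38-fold). Dll1, a Notch ligand, had 0.168, 0.159 and 0.161 in dTg mice, against 0.126, 0.125 and 0.115 in 5xFAD mice (1.33-fold). The groups did not overlap in any of these. For Dll1 the N40K libraries, at 0.16, 0.161 and 0.15, overlapped the WT libraries, at 0.154, 0.139 and 0.149, and all 5xFAD libraries lay below these. Haus6, of the augmin complex that branches microtubules, rose 1.4-fold, Nmt2, an N-myristoyltransferase, 1.31-fold and Slc7a6, an amino acid transporter, 1.3-fold (adjusted p 0.0478, 0.0478 and 0.039 in limma).

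**Figure D1:**
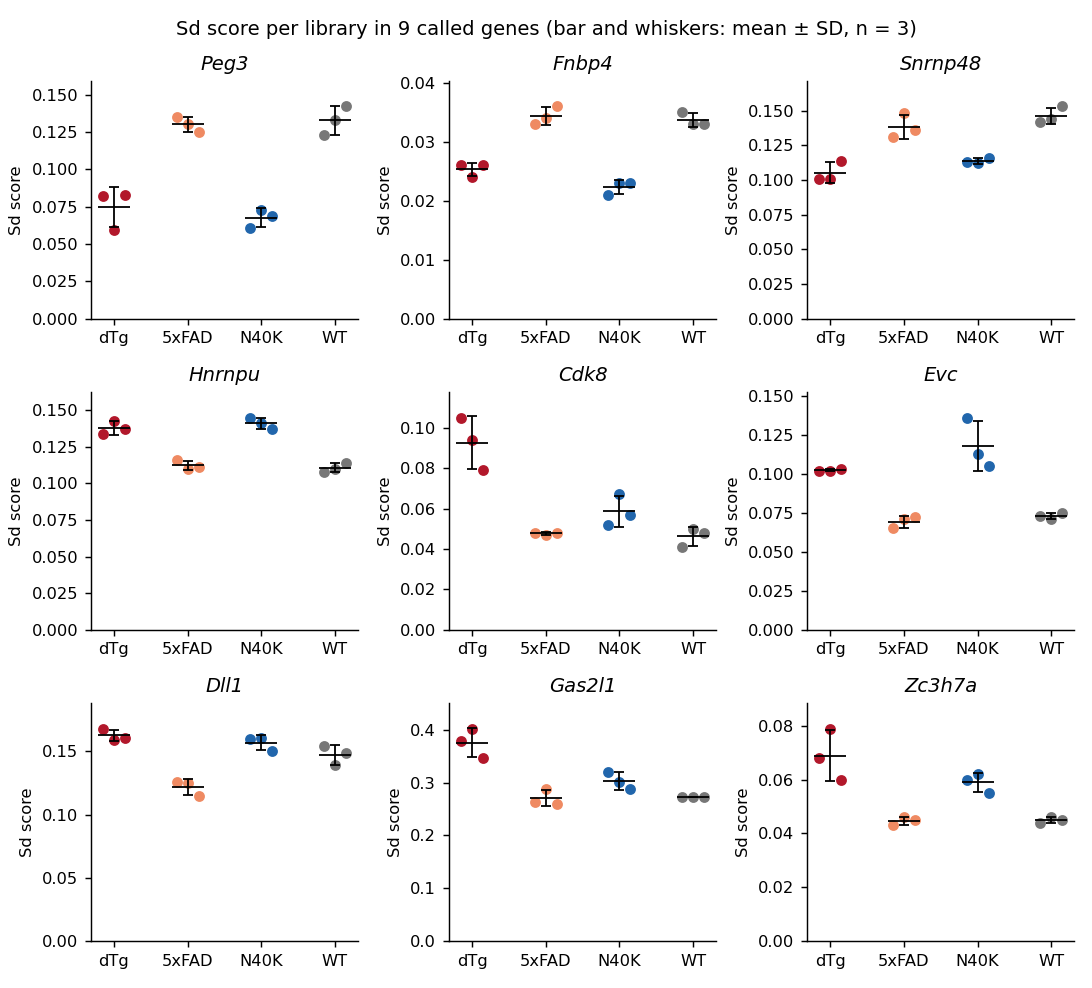
Sd score (vertical axes, each from 0) in every 6-month library for 9 called genes, with groups in the order dTg, 5xFAD, N40K and WT; points are libraries, horizontal bars and whiskers the mean ± SD (n = 3). Peg3, Fnbp4 and Snrnp48 are lower in dTg than in 5xFAD and in N40K than in WT, Hnrnpu, Evc and Zc3h7a are higher in both pairs, and in Cdk8 the dTg libraries, at 0.079 to 0.105, stand above all others.

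Rises in low-scoring genes were of few steps. Slit3, a secreted guidance ligand, had 0.006, 0.008 and 0.006 in dTg mice, against 0.003, 0.003 and 0.002 in 5xFAD mice (1.86-fold, adjusted p 0.0385 in limma). Trpc5, a cation channel, had 0.004, 0.006 and 0.004 in dTg mice, against 0.002 in each 5xFAD library (1.65-fold, adjusted p 0.045). Rnf217, a ubiquitin ligase, had the same dTg and 5xFAD values as Trpc5. Slc12a2, the chloride importer NKCC1, had 0.018, 0.022 and 0.018 in dTg mice, against 0.013, 0.011 and 0.011 in 5xFAD mice (1.56-fold). Its N40K libraries, at 0.019, 0.02 and 0.018, also lay above all WT libraries, at 0.013, 0.011 and 0.013. Col15a1, a basement membrane collagen, and Lgr4, an R-spondin receptor, rose 1.54-fold each.

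B3galt1, a galactosyltransferase, rose in dTg mice while its N40K and WT libraries overlapped. It had 0.004, 0.005 and 0.005 in dTg mice, against 0.002 in each 5xFAD library (1.66-fold, adjusted p 0.0459 in limma), while N40K mice had 0.003, 0.002 and 0.002, against 0.003, 0.002 and 0.003 in WT mice. The difference between the backgrounds was 0.84 (unadjusted p 0.00054, adjusted p 1). At the floor of the scale stood genes such as Rims2, an active-zone protein of the synapse, at 0.002 in all dTg and 0.001 in all 5xFAD libraries, and Atrnl1 and Synpr, which were at 0.001 in all dTg libraries and listed at 0 in all 5xFAD libraries.

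The question of a shift over all genes together was asked of the library medians. The median score was 0.03, 0.035 and 0.033 in the dTg libraries, against 0.031, 0.03 and 0.029 in the 5xFAD libraries. The groups overlapped, because dTg replicate 1 was level with the 5xFAD libraries. Means were 0.0327 ± 0.00252 in dTg and 0.03 ± 0.001 in 5xFAD mice (SD, n = 3 each), a log2 difference of 0.113 (two-sided exact permutation p = 0.3, with 0.1 the smallest p that 3 against 3 allows). Gene by gene, the median change was 0.0965 with quartiles of -0.0124 and 0.239, and 68.6% of genes had a change above 0.

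The 3 dTg libraries contributed unequally. Against the mean of the 5xFAD libraries, the median difference over genes was 0.00133 in dTg replicate 1, 0.174 in replicate 2 and 0.108 in replicate 3. Replicate 2 held the highest dTg score in 47.2% of all genes and was highest or tied in 39 of the 44 rises, while replicate 1 was highest or tied in 18 and replicate 3 in 17. Without dTg replicate 2 the median change over all genes was 0.0576, and 36 genes were called, 27 of them among the 49.

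**Figure D2:**
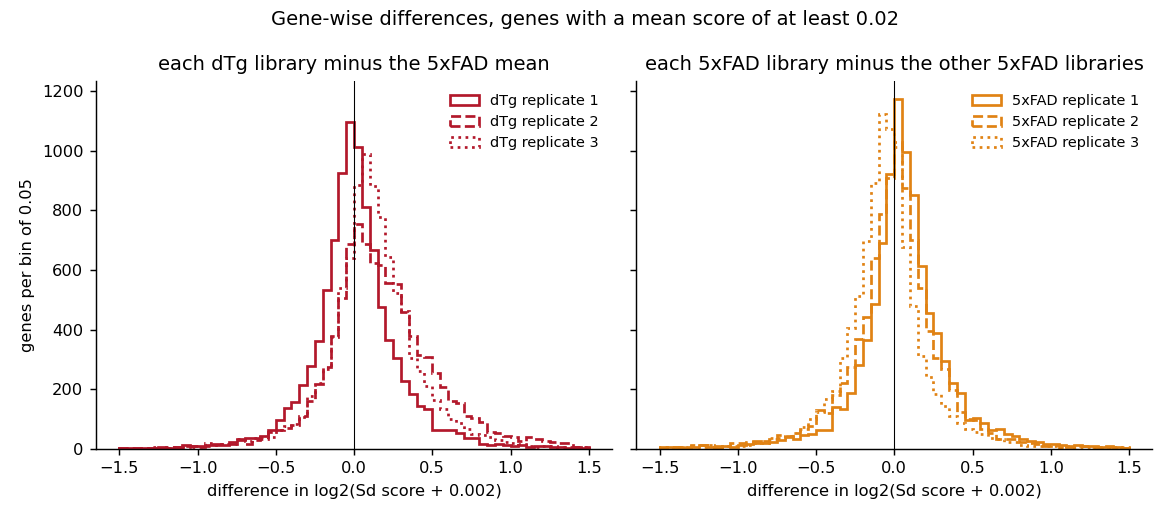
Distribution over genes of the difference in log2(Sd score + 0.002), horizontal axis, counted in bins of 0.05 for genes with a mean score of at least 0.02. Left, each dTg library minus the 5xFAD mean; right, each 5xFAD library minus the other 5xFAD libraries. Replicate 1 of dTg is centred near 0, and replicates 2 and 3 are displaced to the right.

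Of all genes, 2256 (14.4%) had dTg libraries all above the 5xFAD libraries and 371 (2.36%) had them all below. After centring the split was nearly even, with 1639 (10.4%) higher and 1432 (9.12%) lower. Centring took the median change over genes to -0.0169. In N40K against WT, centring gave 1468 higher and 3266 lower genes. Every N40K library median lay above every WT median, at 0.031 or more against 0.03 or less. A gene with the same score in all libraries, such as App, therefore counts as lower there after centring. The dTg and 5xFAD medians overlapped, so this does not happen between them, and the splits of the 2 pairs are not alike. No gene was called after centring, and the genes with the smallest centred p are given as values.

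Faah, the enzyme that degrades the endocannabinoid anandamide, stood highest in that order among genes with established names and a mean score of at least 0.02. It had 0.098, 0.146 and 0.121 in dTg mice, against 0.06, 0.072 and 0.06 in 5xFAD mice, a centred change of 0.78 (adjusted p 0.0572 in limma). In N40K mice it had 0.147, 0.108 and 0.121, against 0.063, 0.06 and 0.063 in WT mice, so neither pair overlapped. Angptl2, a secreted glycoprotein, had 0.191, 0.404 and 0.183 in dTg mice, against 0.084, 0.057 and 0.054 in 5xFAD mice (centred change 1.78). In both genes dTg replicate 2 was the highest. Lmf1, a lipase maturation factor, Fam53b and Ccdc24 had centred changes of 0.87, 1.33 and 1.54, with adjusted p of 0.0575 for each.

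On the lower side, Hif1an, the oxygen-dependent asparagine hydroxylase that inhibits HIF1A, had 0.03, 0.03 and 0.033 in dTg mice, against 0.045, 0.041 and 0.047 in 5xFAD mice. The centred change was -0.60 (adjusted p 0.0575 in limma), and N40K mice had 0.038, 0.033 and 0.03, against 0.036, 0.036 and 0.043 in WT mice. These overlapped as deposited. After centring all N40K libraries lay below WT (change -0.34, adjusted p 0.122 in limma), which held for 3266 of the 15705 genes. BC037034, Fam3a and Galns, a lysosomal sulfatase, had centred changes of -0.58, -0.47 and -0.45 (adjusted p 0.0586, 0.0616 and 0.0648). Peg3 and Snrnp48 were the remaining 2 of the 6 lower genes with the smallest centred p.

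The N40K and WT libraries, which share no library with dTg and 5xFAD, gave the change with the same transgene in other mice. They entered the estimate of the spread behind the calls, so the calls are not wholly independent of them. A small spread within N40K and WT favours a call and also favours groups that do not overlap. The shares of all genes, which were not selected by spread, are therefore no like base for the counts of separate groups among the calls. Of the 44 rises, 41 also had a change above 0 in N40K minus WT, against 68.7% of all genes, and in 38 the N40K libraries were all above the WT libraries, against 16.8% of all genes. Of the 5 falls, 4 had N40K libraries all below WT, against 2.64% of all genes; the exception was Tuba1a. The median change of the 44 rises was 0.47 on the 5xFAD background and 0.33 without 5xFAD. The 44 were selected by their change on the 5xFAD background, which favours a larger median there. These medians therefore cannot show whether N40K acted less without 5xFAD. Over all genes the median change was 0.0965 with 5xFAD and 0.0958 without it. Fitted on the 6 dTg and 5xFAD libraries alone, 49 genes were called, 14 of them among the 49 above, and 42 moved the same way in N40K minus WT. Of the 28 genes called in N40K minus WT (0.178%), 18 were called in dTg minus 5xFAD. Most of these 18 were rounding steps: 11 were rises of 0.001 with no spread in any group and equal changes on both backgrounds. The same 11 are among the 38 rises with N40K libraries all above the WT libraries.

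Among the 15 rises with a mean score of at least 0.02, N40K and WT libraries were separated in the same direction in 12 as deposited and in 7 after centring, when 9.35% of all genes were. Beyond the calls, 1050 genes had both dTg above 5xFAD and N40K above WT without overlap, which is 46.5% of the 2256 in dTg and 39.8% of the 2637 in N40K. In 93 genes both were lower, 25.1% of 371 and 22.4% of 415. After centring, 677 were higher in both, 41.3% of 1639 in dTg and 46.1% of 1468 in N40K. Another 633 were lower in both, 44.2% of 1432 in dTg but 19.4% of 3266 in N40K, a count that takes in genes with unchanged scores. Across 9640 genes with a mean score of at least 0.02, the changes on both backgrounds correlated with Pearson's r = 0.489 and Spearman's rho = 0.504. The genes share their libraries and are no replicates, and in each pair 1 library with a high median (dTg replicate 2 and N40K replicate 1) took part. Without these r was 0.302.

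**Figure D3:**
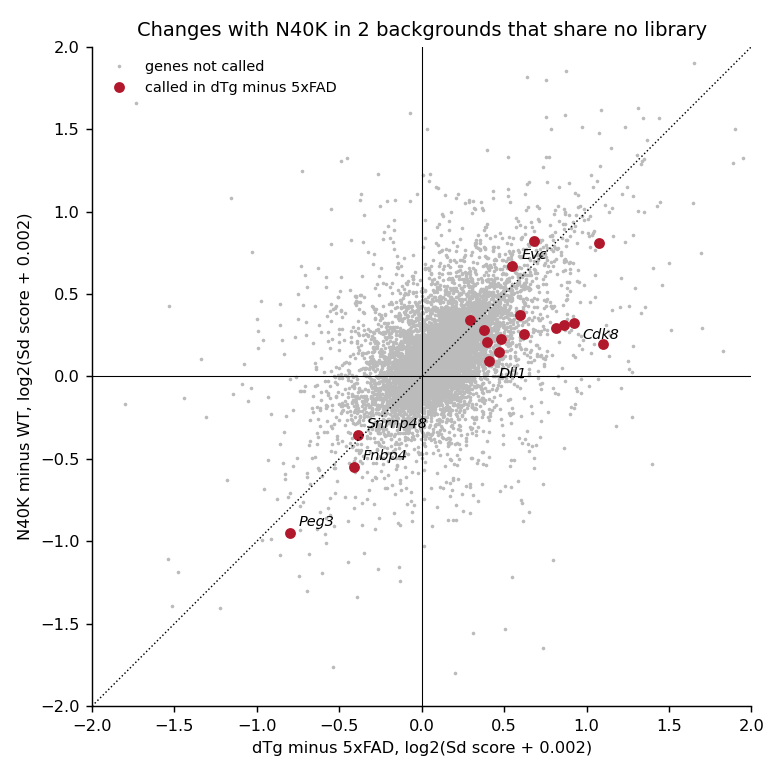
Change in log2(Sd score + 0.002) per gene, dTg minus 5xFAD on the horizontal and N40K minus WT on the vertical axis, for 9640 genes with a mean score of at least 0.02 (8 lie outside the range). Red points are the 18 genes called in dTg minus 5xFAD and the dotted line marks equal changes; Peg3, Fnbp4 and Snrnp48 lie near it at lower left, and Cdk8 and Dll1 lie below it.

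Whether N40K acted differently with 5xFAD was tested by the difference of both changes. It passed in 3 genes (0.0191% of all), Synpr, Atp2b2 and Kcnab1, each by 1 step of 0.001, and 450 genes (2.87%) had an unadjusted p under 0.05. After centring none passed, and 588 genes (3.74%) had an unadjusted p under 0.05. Among higher-scoring genes the smallest p was that of Cyb5r1, a cytochrome b5 reductase, with 0.116, 0.115 and 0.119 in dTg mice, against 0.108, 0.112 and 0.111 in 5xFAD mice, and 0.104, 0.114 and 0.109 in N40K mice, against 0.123, 0.126 and 0.127 in WT mice. The difference was 0.28 (unadjusted p 0.00095, adjusted p 1 in limma); the dTg minus 5xFAD change itself, 0.08, was -0.03 after centring. Sat2, an acetyltransferase, had 0.45, 0.448 and 0.446 in dTg mice, against 0.523, 0.502 and 0.52 in 5xFAD mice, which stood above all other groups. Npy5r, a neuropeptide Y receptor, and Dcbld2 had differences of -1.04 and -0.51 (unadjusted p 0.0013 and 0.0017).

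Genes related to the transgenes gave no call. The endogenous gene Snrnp70 had 0.042, 0.039 and 0.045 in dTg mice, against 0.045, 0.044 and 0.044 in 5xFAD mice, which overlap (change -0.08, adjusted p 0.458 in limma). The labels do not say whether reads of the transgene count toward Snrnp70, and the score therefore does not check the genotype. App was listed at 0 in all 6 libraries. Thy1, whose promoter drives the 5xFAD transgenes, had 0.012, 0.013 and 0.014 in dTg mice, against 0.015, 0.017 and 0.016 in 5xFAD mice. Its groups did not overlap, and the change was -0.26 (adjusted p 0.187). Prnp and its neighbour Prnd had changes of 0.30 and 0.29 with overlapping groups.

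In the lists of splicing factors the calls were Hnrnpu, Snrnp48 and Elavl2. Of 22 U1 proteins and U1-associated factors none passed, and 3 (13.6%) had dTg libraries all above 5xFAD, close to the 14.4% of all genes. These were Luc7l2 and Luc7l3, which help U1 choose 5′ splice sites, and the Sm protein gene Snrpd1. Luc7l2 had 0.067, 0.077 and 0.06 in dTg mice, against 0.048, 0.046 and 0.048 in 5xFAD mice (change 0.50, adjusted p 0.0949 in limma). The median change of the U1 list was 0.0744 as deposited and -0.039 after centring, against 0.0965 and -0.0169 over all genes.

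Among 23 SR proteins, Tra2 proteins and their kinases none passed, and 7 (30.4%) lay all above 5xFAD, or 4 (17.4%) after centring, against 14.4% and 10.4% of all genes. Srpk1, an SR protein kinase, had 0.041, 0.051 and 0.044 in dTg mice, against 0.03, 0.029 and 0.033 in 5xFAD mice (adjusted p 0.0616 in limma). Srsf11, an SR protein, had 0.038, 0.048 and 0.039 in dTg mice, against 0.029, 0.03 and 0.032 in 5xFAD mice (adjusted p 0.0939). In both, dTg replicate 2 was the highest.

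In the minor spliceosome, Snrnp48 alone passed of 12 measured members. Its U11/U12 partner Snrnp25 had 0.013, 0.014 and 0.015 in dTg mice, against 0.019, 0.017 and 0.017 in 5xFAD mice (change -0.30, adjusted p 0.158 in limma). Snrnp35, the U11 counterpart of U1-70K, had the opposite sign, with 0.04, 0.048 and 0.043 in dTg mice, against 0.032, 0.036 and 0.034 in 5xFAD mice (change 0.34, adjusted p 0.139). Of the 12 members, 4 (33.3%) lay all above and 2 (16.7%) all below 5xFAD, against 14.4% and 2.36% of all genes. In the 32 factors of the U2 particle, the tri-snRNP and SF3 none passed, with 2 above and 2 below and a median change of 0.00784. After centring 8 of them lay all below 5xFAD, against 9.12% of all genes.

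Among 21 neuronal splicing regulators, Elavl2, a neuronal Hu protein, passed with 0.002, 0.003 and 0.002 in dTg mice, against 0.001 in each 5xFAD library (adjusted p 0.0385 in limma). Nova1 had 0.021, 0.025 and 0.018 in dTg mice, against 0.015, 0.015 and 0.014 in 5xFAD mice (adjusted p 0.09). Of 21 cleavage and polyadenylation factors none passed, and 3 (14.3%) lay all above 5xFAD, close to the 14.4% of all genes. These were led by Rbbp6, with 0.097, 0.116 and 0.095 in dTg mice, against 0.062, 0.072 and 0.07 in 5xFAD mice (adjusted p 0.0691 in limma).

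Potassium channels and their relatives had the highest median change of the lists. The title of the series names neuronal hyperexcitability, and these channels set the resting potential and end the action potential. None of the 30 measured members passed, but 10 (33.3%) had dTg libraries all above 5xFAD and none all below, against 14.4% and 2.36% of all genes. After centring 10 (33.3%) lay above and 2 (6.67%) below. The median change was 0.215, or 0.101 after centring, and 25 members had a change above 0.

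Kcna1, the axonal Kv1.1 channel, had 0.088, 0.119 and 0.093 in dTg mice, against 0.068, 0.041 and 0.051 in 5xFAD mice, and 0.103, 0.087 and 0.089 in N40K mice, against 0.058, 0.052 and 0.06 in WT mice. Both pairs were separate, and the changes were 0.90 (adjusted p 0.0742 in limma) and 0.69 (adjusted p 0.0908). Kcna6 and Kcna4, of the same family, had changes of 0.70 and 0.71. Kcna6 had 0.049, 0.083 and 0.058 in dTg mice, against 0.035, 0.045 and 0.033 in 5xFAD mice. Hcn2, a pacemaker channel, had 0.015, 0.02 and 0.018 in dTg mice, against 0.012, 0.014 and 0.011 in 5xFAD mice (adjusted p 0.205). In all 10 but Kcnb2, dTg replicate 2 was the highest library. The role of that library in the list was not tested.

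In the list of sodium and calcium channels, which also holds Trpc4, Trpc5 and Nalcn, Trpc5 alone passed of 29. Of these, 6 (20.7%) lay all above 5xFAD and none below, against 14.4% and 2.36% of all genes, and after centring 4 (13.8%) lay above, against 10.4%. The median change was 0.161, or 0.0473 after centring, against 0.0965 and -0.0169 over all genes. Scn2a1, the Nav1.2 sodium channel, had 0.004, 0.005 and 0.004 in dTg mice, against 0.003 in each 5xFAD library (adjusted p 0.0963 in limma). Of 37 genes of the glutamatergic synapse none passed, and 7 (18.9%) lay all above and none below, against 14.4% and 2.36% of all genes. The median change was 0.153, or 0.0398 after centring. Grik1, a kainate receptor, had 0.004, 0.005 and 0.004 in dTg mice, against 0.003 in each 5xFAD library (adjusted p 0.0521). Grm4, a presynaptic metabotropic receptor, had 0.032, 0.042 and 0.044 in dTg mice, against 0.02, 0.025 and 0.018 in 5xFAD mice (change 0.84, adjusted p 0.165).

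Of 41 genes of vesicle release, Snap25 and Rims2 passed. Of the 41, 6 (14.6%) lay all above and 1 (2.44%) all below 5xFAD, close to the 14.4% and 2.36% of all genes. The median change was 0.107, or -0.00607 after centring, against 0.0965 and -0.0169 over all genes. Snap25, a SNARE protein of exocytosis, had 0.005, 0.006 and 0.005 in dTg mice, against 0.003 in each 5xFAD library (1.46-fold, adjusted p 0.0238 in limma), and N40K mice had 0.005, 0.004 and 0.004, against 0.003 in each WT library. Vamp1, its vesicle partner, had 0.019, 0.022 and 0.018 in dTg mice, against 0.013, 0.012 and 0.012 in 5xFAD mice (adjusted p 0.0616). The GABAergic list had a median change of 0.031, or -0.0823 after centring, and its 1 call of 33 was Slc12a2. Axon guidance genes had 1 call of 52, Slit3, and 4 (7.69%) lay all above 5xFAD, against 14.4% of all genes.

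Lists of other cell types held no call. None of the 20 measured microglial genes lay all above or all below 5xFAD, against 14.4% and 2.36% of all genes. Their median change was -0.0131, with a summed score of 0.731 to 0.764 in dTg libraries and 0.721 to 0.844 in 5xFAD libraries. Of the 22 astrocyte genes, Sox9, a glial transcription factor, had 0.027, 0.021 and 0.018 in dTg mice, against 0.05, 0.042 and 0.048 in 5xFAD mice (change -1.03, adjusted p 0.081 in limma). The N40K and WT libraries, at 0.016 to 0.03 and 0.023 to 0.028, lay with dTg, so the 5xFAD libraries were the ones apart. Sox9 was the 1 astrocyte gene (4.55%) that lay all below 5xFAD, and the median change of the list was 0. Olig2, of the oligodendrocyte lineage, had 0.12, 0.125 and 0.128 in dTg mice, against 0.184, 0.163 and 0.177 in 5xFAD mice (change -0.48, adjusted p 0.0949), and WT mice had 0.119, 0.127 and 0.146. It was the 1 of 11 oligodendrocyte genes (9.09%) that lay all below 5xFAD. The list went the other way, with 8 of the 11 above 0 and a median change of 0.101, against 0.0965 over all genes. The endothelial receptors Tek and Kdr were the 2 of 13 vascular genes (15.4%) that lay all below 5xFAD, against 2.36% of all genes.

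Of 51 cytosolic ribosomal protein genes, many of which have processed copies in the genome, none passed. Of these, 1 (1.96%) lay all below 5xFAD, against 2.36% of all genes. Their median change was -0.0128, or -0.126 after centring, when 11 (21.6%) lay all below, against 9.12% of all genes. Of 41 respiratory chain genes none passed and 2 (4.88%) lay all above 5xFAD, against 14.4% of all genes. These were led by Ndufv1 of complex I (change 0.44, adjusted p 0.125 in limma). Of 27 Alzheimer risk and processing genes none passed. Aph1a, a gamma-secretase subunit, had the smallest p there, with 0.169, 0.176 and 0.162 in dTg mice, against 0.145, 0.128 and 0.13 in 5xFAD mice (change 0.33, adjusted p 0.131). Of 24 imprinted genes Peg3 alone passed. In this list 4 (16.7%) lay all above and 3 (12.5%) all below 5xFAD, against 14.4% and 2.36% of all genes. The median change was 0.0296, and 13 members had a change above 0. Among those below were the long noncoding RNAs Meg3 and Rian, with changes of -0.10 and -0.11. Of 23 tubulin and microtubule genes Tuba1a alone passed. Of 13 immediate early genes none passed, and Bdnf had 0.006, 0.008 and 0.005 in dTg mice, against 0.003 in each 5xFAD library (adjusted p 0.163).

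**Figure D4:**
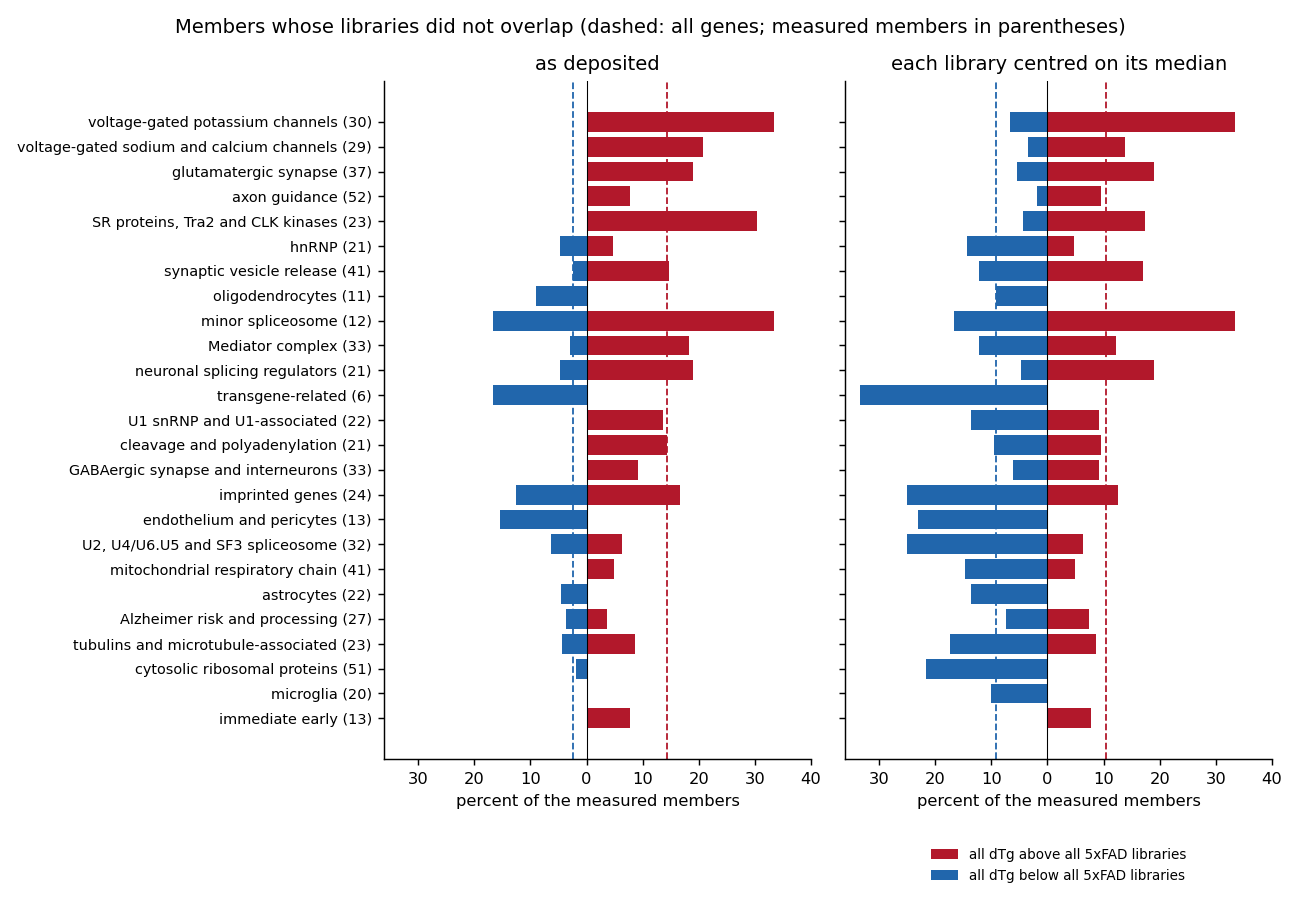
Percent of the measured members of each list (rows, ordered by median change) whose dTg libraries lay all above (red, to the right) or all below (blue, to the left) the 5xFAD libraries, as deposited and after centring; dashed lines give the same for all genes. Potassium channels and the minor spliceosome stand at 33.3% to the right in both panels. After centring, ribosomal protein genes stand at 21.6% to the left. Further left there are transgene-related genes (33.3%), the U2, tri-snRNP and SF3 factors (25%), imprinted genes (25%) and endothelium and pericytes (23.1%).

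The change was also described by gene length. Genes were split into quintiles by summed intron length, for the 14823 genes with an annotated length. The median change was 0.0115, 0.0784, 0.122, 0.133 and 0.138 over the quintiles, shortest to longest, and the share with dTg all above 5xFAD was 7.76% in the shortest and 17.5% in the longest quintile. The median summed intron length was 103.5 kb in the 44 rises, of those matched, and 21.0 kb in all genes. Among genes with a mean score of at least 0.02 it was 34.4 kb in the rises and 11.8 kb in all. Over members of any score, the median was 82.7 kb in the potassium channel list, 128.4 kb in the sodium and calcium channel list and 1.34 kb in the ribosomal protein list. The order of the lists did not follow length throughout: neuronal splicing regulators, with 140.0 kb, had a median change of 0.0944, GABAergic genes, with 57.2 kb, 0.031, and SR proteins, with 13.2 kb, 0.123. Kcna1 is an exception to the length of its list, with 1208 bases of intron.

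Intron length and score level moved together across genes (Spearman's rho = -0.62). By quintiles of the mean score, lowest to highest, the median change was 0.113, 0.121, 0.106, 0.0839 and 0.0398. The quintiles of intron length were also taken among genes with a mean score of at least 0.02. The median change there was 0.00556, 0.0528, 0.0945, 0.128 and 0.129. Score level still differed between these quintiles, with a median of 0.17 in the shortest and 0.0391 in the longest. Length and score level were therefore not separated. The longest quintile stood above the shortest in each dTg library: by library, medians in the longest quintile were 0.037, 0.247 and 0.126, and in the shortest -0.0305, 0.00595 and 0.0597. Among 5xFAD libraries, each set against the others, the same medians were 0.0539, 0.000489 and -0.0535 in the longest and 0.0393, 0.000192 and -0.0382 in the shortest quintile. In N40K minus WT the median change was 0.0109 in the shortest and 0.151 in the longest quintile. These are descriptions over genes, which share their libraries, and the part of depth or RNA quality was not tested.

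**Figure D5:**
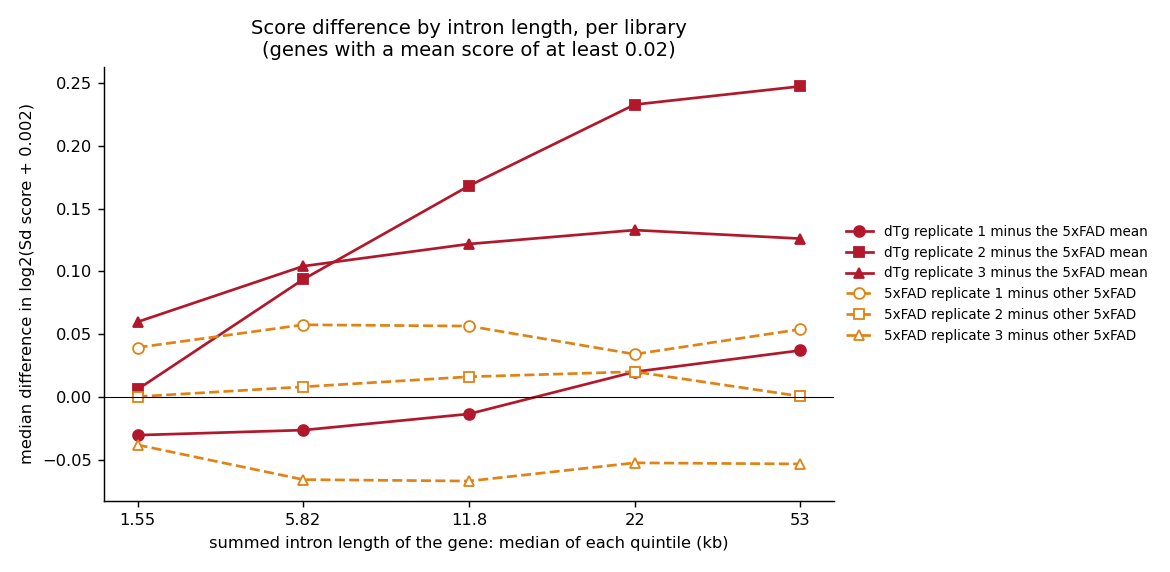
Median difference in log2(Sd score + 0.002), vertical axis, over quintiles of genes by summed intron length, horizontal axis in kb at each quintile's median, for genes with a mean score of at least 0.02. Solid red lines are single dTg libraries minus the 5xFAD mean and dashed orange lines single 5xFAD libraries minus the others. In dTg replicate 2 the line climbs to 0.247 in the longest quintile, and the dashed lines stay between -0.0671 and 0.0574.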

How the data were processed

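Stranded poly(A) libraries were made from DNase-treated cortex RNA and sequenced in pairs of 100 bases, per the labels. The submitters' processing notes name CASAVA, STAR, BWA, bedtools 2.16.1 and mm9. The deposited Sd scores are linear ratios, 1 for each gene in each library, given by the authors to 3 decimals. Not given in the sources used here are their formula, counting, annotation, use of strand and read depth. Overlapping genes may therefore share reads, and no interval that needs depth is printed.

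Scores were analysed as log2(score + 0.002) with limma 3.58.1 in R 4.3.3, with 1 term for each of 4 groups over 12 libraries and 8 residual degrees of freedom. P-values are two-sided and adjusted by Benjamini-Hochberg over 15705 genes, with a threshold of 0.05. Interaction values are dTg minus 5xFAD minus the N40K minus WT change. Centring subtracted each library's median. The fit was tested on simulated data.

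Named genes are the up to 10 largest rises and falls with separate libraries, up to 6 per direction after centring and 4 for the interaction with a mean score of at least 0.02, called or leading members of 25 lists, and transgene-related genes. Predicted genes were counted, and a few genes that the rule named are not reported here. The comparison, the lists and the rule were chosen with earlier results of these data known. Intron lengths came from GENCODE M21 by gene identifier (94.9% matched), which is on another build, so no positions are printed. Splice site sequences were not used here. Alternatives were centring, pseudocounts of 0.001 and 0.01, a minimum mean score of 0.02, 6 libraries only, a variance trend, a replicate block and leaving out libraries.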

Additional observations from a re-analysis of the deposited data

Results flagged for a closer look

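In 3 genes the effect of N40K differed between the 5xFAD and WT backgrounds past the threshold of the interaction test in limma, each by 1 step of the rounding. Synpr, a synaptic vesicle protein, was at 0.001 in all 3 dTg libraries and listed at 0 in all 5xFAD, N40K and WT libraries, which gives an interaction of 0.58 on the log2(score + 0.002) scale, a size that the pseudocount sets. Atp2b2, a plasma membrane calcium pump, was at 0.002 in all dTg, 5xFAD and N40K libraries and at 0.001 in all WT libraries, an interaction of -0.42. Kcnab1, a potassium channel subunit, had the same values in all 12 libraries and the same interaction of -0.42. None passed after centring. The role of the rounding was not tested.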

How the results depend on the processing

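The count of 49 genes was 0 after centring, with a pseudocount of 0.01, with a minimum mean score of 0.02 and with both centring and that minimum, 15 with the replicate block and 170 without the 2 libraries of highest median (dTg replicate 2 and N40K replicate 1), 41 of them among the 49. Unadjusted p under 0.05 was met by 2534 genes after centring, 2811 with a pseudocount of 0.01 and 1512 with the minimum score. On the 6 libraries alone 49 genes were called, 14 of them shared. Of the 49, 45 moved the same way in N40K minus WT; this count was 0 under the same 4 settings, 13 with the replicate block and 141 without the 2 libraries. The interaction count of 3 was 0 under those 4 settings and with the block, 5 with a variance trend and 22 without the 2 libraries. The median change of 0.0965 was -0.0169 after centring and -0.0339 with the minimum score as well. Cyb5r1 turned to -0.0342 in both centred settings. Centring takes the library median difference of 0.113 from the dTg minus 5xFAD change of every gene, which gives the lower centred changes. Where no gene was called, the count moving the same way is 0 for that reason. For the other moves of the counts the cause was not tested. The minimum score takes 31 of the 49 out of the test, and the other 18 stayed in it with adjusted p from 0.0804 to 0.0957.

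Leaving out 1 library of the 12 gave 15 to 296 called genes, 13 to 267 moving the same way, 1 to 14 interaction calls, and a median change of 0.0576 to 0.138. The library median difference was 0.0651 to 0.17 over omissions of dTg and 5xFAD libraries. The count moved by over 1.5 times without dTg replicate 1 (80), 5xFAD replicates 1, 2 and 3 (19, 30 and 18), N40K replicate 1 (296) and WT replicates 1, 2 and 3 (15, 19 and 20); leaving out N40K and WT libraries was chosen after seeing the data. Same-numbered dTg and 5xFAD libraries did not deviate together (r of -0.0243, -0.0155 and -0.038), and 0 of 12 libraries was nearest to its own number. No pairing by number was seen, but with 3 libraries per group these values cannot exclude one. Unknown depth and the step of 0.001 limit what can be read from low scores.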

Other observations

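Predicted genes made up 5 of the 49 calls (10.2%), against 16.7% of the table, and all 5 had a mean score of at least 0.02. The largest rise of all calls was 1700112D23Rik, with 0.064, 0.092 and 0.076 in dTg mice, against 0.034, 0.032 and 0.038 in 5xFAD mice (2.15-fold, adjusted p 0.0385 in limma). Its N40K libraries, at 0.062, 0.05 and 0.044, overlapped the WT libraries, at 0.052, 0.041 and 0.042. Gm14418 had 0.116, 0.167 and 0.096 in dTg mice, against 0.058, 0.053 and 0.061 in 5xFAD mice (2.11-fold, adjusted p 0.0478).

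Among genes that did not pass, Gm16962 had 0.577, 1.225 and 0.954 in dTg mice, against 0.186, 0.233 and 0.098 in 5xFAD mice (change 2.42, adjusted p 0.0769 in limma). It had 2.084, 0.669 and 0.764 in N40K mice, against 0.106, 0.166 and 0.153 in WT mice, so neither pair overlapped. Gm16049 and Gm16052 tracked each other from library to library. Gm16049 had 4.421, 2.688 and 2.085 in dTg mice, against 1.42, 0.151 and 1.075 in 5xFAD mice, and Gm16052 had 3.056, 1.866 and 1.356, against 0.923, 0.11 and 0.699 (adjusted p 0.188 and 0.175). These genes were chosen after their values were seen.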
